A study of Mus musculus with 6 samples.

Results

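The genes described here build cholesterol and fatty acids in the cell. The set holds 30 genes chosen by name: 18 enzymes of sterol synthesis, 8 enzymes of fatty acid synthesis and 4 regulators. Each gene is represented by the probe set that the probe table assigns to it alone and that is brightest by its mean over the 6 arrays. A probe set of this kind was found for 29 of the 30 genes, all of which passed the filter on low values, among 10824 genes tested in all. The sterol enzyme gene Acat2 had no such probe set and was not analysed here.

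The arrays compare blood stem and progenitor cells of 3 adult mice (278, 279 and 281), taken from bone marrow by cell sorting. The mice were on a mixed 129-B6 background. Every mouse carried Mx1Cre, an interferon-inducible recombinase, 1 Erg knockdown allele (Ergkd/+) and R26Y, a Rosa26 reporter whose stop signal Cre removes, so the animals of both groups share these alleles. YFP-negative cells are labelled Erg-knockdown, with a reduction of about 40%, and YFP-positive cells of the same animal are labelled Erg-restored to the wild-type level. Both came from the LSK gate (lineage-negative, Sca-1-positive, c-Kit-positive), 1 array for each population of each mouse, and the dose of Erg therefore cannot be told apart from the action of Cre, the reporter or which cells Cre spared.

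Cells make cholesterol from acetyl-CoA through mevalonate, the isoprenoids, squalene and lanosterol, and they make fatty acids from the same acetyl-CoA through malonyl-CoA, followed by elongation and desaturation. Both routes are controlled by the SREBP transcription factors, which are held in the endoplasmic reticulum by INSIG proteins while sterol is plentiful and are cut free when it is scarce. SREBP-2 is known mainly for sterol genes and SREBP-1c for fatty acid genes. Dividing blood progenitors need both products for new membranes.

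Promoters are where such factors bind, and those of 4 members are shown for that reason. The first is that of Hmgcs1, the only match to the sterol element searched among the 23 members with a listed promoter. The others are those of Mvd, the sterol enzyme with the most negative difference, and of the regulators Insig1 and Srebf2. Each is RefSeq's window of 300 bases around the start of the gene, most of it upstream, in GRCm38.p6 and on the strand of the gene. In the order Hmgcs1, Mvd, Insig1 and Srebf2 the windows are chr13:119690101-119690400 (+), chr8:122443373-122443672 (-), chr5:28071162-28071461 (+) and chr15:82147019-82147318 (+). Capitals mark matches on either strand to a sterol regulatory element (TCACNCCAC), to a core of ETS factor sites (CCGGAA) and to the CCAAT box, and no base lies in more than 1 of these matches.
Hmgcs1: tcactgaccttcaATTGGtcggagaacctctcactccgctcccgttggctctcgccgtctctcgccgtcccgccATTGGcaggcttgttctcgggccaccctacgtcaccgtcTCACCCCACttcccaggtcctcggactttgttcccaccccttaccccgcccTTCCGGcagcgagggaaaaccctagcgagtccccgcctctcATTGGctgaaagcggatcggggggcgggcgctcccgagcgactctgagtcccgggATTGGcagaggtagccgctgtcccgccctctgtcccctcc
Mvd: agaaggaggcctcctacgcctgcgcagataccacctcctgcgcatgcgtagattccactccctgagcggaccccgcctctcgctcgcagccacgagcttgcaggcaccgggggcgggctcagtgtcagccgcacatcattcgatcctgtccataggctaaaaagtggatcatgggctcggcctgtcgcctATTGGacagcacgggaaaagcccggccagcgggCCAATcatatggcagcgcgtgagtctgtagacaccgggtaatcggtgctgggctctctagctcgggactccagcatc
Insig1: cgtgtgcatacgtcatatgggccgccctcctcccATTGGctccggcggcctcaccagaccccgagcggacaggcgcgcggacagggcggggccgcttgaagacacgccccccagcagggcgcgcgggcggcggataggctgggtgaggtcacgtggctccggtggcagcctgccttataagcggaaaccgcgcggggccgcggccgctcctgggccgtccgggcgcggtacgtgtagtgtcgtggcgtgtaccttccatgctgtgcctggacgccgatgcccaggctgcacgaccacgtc
Srebf2: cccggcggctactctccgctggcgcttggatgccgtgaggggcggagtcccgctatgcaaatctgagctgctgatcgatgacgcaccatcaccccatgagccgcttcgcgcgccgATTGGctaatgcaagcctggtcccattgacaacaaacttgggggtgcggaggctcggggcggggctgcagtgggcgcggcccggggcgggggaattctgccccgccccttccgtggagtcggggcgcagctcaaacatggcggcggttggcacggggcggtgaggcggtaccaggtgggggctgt
Promoters were listed for 23 of the 30 members, 28 sequences in all. None was listed for Sqle, Fdps, Fdft1, Scd1, Scd2, Fads1 and Stard4. The sterol element was matched in 1 of the 28, that of Hmgcs1, and in 1.24% of all 32851 promoters of that length. The match in Hmgcs1 starts at position -137, counted from the first base of the gene. CCAAT, read on both strands, occurred in 20 of the 28 (71.4%), against 37.4% of all promoters, and the GC box GGGCGG, bound by SP1, in 21 of the 28 (75.0%), against 35.7%. The ETS core, of interest because ERG is an ETS factor, occurred in 5 of the 28 (17.9%), from the genes Dhcr7, Hmgcs1, Lss and Srebf1, against 14.9% of all. A match is a run of letters and not a measured binding site, and a window without one says nothing about the factor.

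The median probe set read 157, 143 and 153 on the knockdown-labelled arrays of mice 278, 279 and 281, and 135, 139 and 144 on the restored-labelled ones. The number of arrays limits precision, and so does scaling: centring the arrays on these medians moved the median difference of all genes to -0.11, more than the median size of a member's difference, 0.086. The LSK label was checked with Kit, which read 3972 to 5206, Cd34, which read 8800 to 9512, and 6 more markers with a probe set, all of which passed the filter. The brighter Erg probe set averaged a log2 difference of 0.024 (adjusted p = 0.936, limma) and did not show the labelled reduction. The dimmer one read 1820.1, 1331 and 1569.7 in knockdown-labelled cells and 1859, 1542 and 1686 in restored-labelled cells. It was lower in each knockdown-labelled array, but its difference of -0.11 ± 0.11 was about the size of its error and far short of the labelled reduction. As neither probe set showed the labelled reduction and their signs differ, the names knockdown-labelled and restored-labelled are used throughout. The restored-labelled array of mouse 279 stood apart, with a 3' over 5' log2 ratio of 0.706 against 0.470 to 0.539 on the other arrays. It was the highest array for 38.9% of all genes. A difference is the knockdown-labelled value less the restored-labelled one, in log2(intensity + 16) units, and its error is the standard error from limma with the mouse as a block. Adjusted p-values (Benjamini-Hochberg) cover all 10824 genes. They rest on the spread of the within-mouse differences, which limma combines with that of all genes.

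Differences between the populations were small for most of the synthesis genes, and no gene passed the adjusted test. Of the 29 members 14 had a positive and 15 a negative difference, with a median of -0.0037, against -0.0002 for all genes. With centred arrays 6 were positive and 23 negative, and after quantile normalization 11 and 18. Other settings tipped the split the other way. It was 17 positive and 12 negative with the mean over probe sets, and 20 and 9 without mouse 279. A fit to 5 arrays, which drops restored-labelled mouse 279 and the mouse term, also gave 20 and 9. In limma 0 of the 29 passed an adjusted p of 0.05, where 0.0% of all genes did. At unadjusted p below 0.05 there were 2 members, Scd1 with a positive and Mvd with a negative difference, where 5.84% of all genes reached it. In a fit without the mouse as a block Scd1 was the only such member, with an unadjusted p of 0.0207, while Mvd had 0.13. The 95% interval lay within a 1.5-fold difference in either direction for 23 of the 29 members, against 74.9% of all genes. It lay within 2-fold for 28 of them, Lss being the exception, against 93.85% of all genes. The narrower limit held for 9 members without mouse 278 and for 15 without mouse 281, against 38.1% and 59.2% of all genes. The sign was the same in all 3 mice for 8 members, or 27.6%, against 32.2% of all genes. The groups did not overlap for 4 members (Scd1, Scd2, Hsd17b7 and Srebf2), or 13.8%, against 15.2% of all genes. Neither share was above that of the genes at large.

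**Figure D1:**
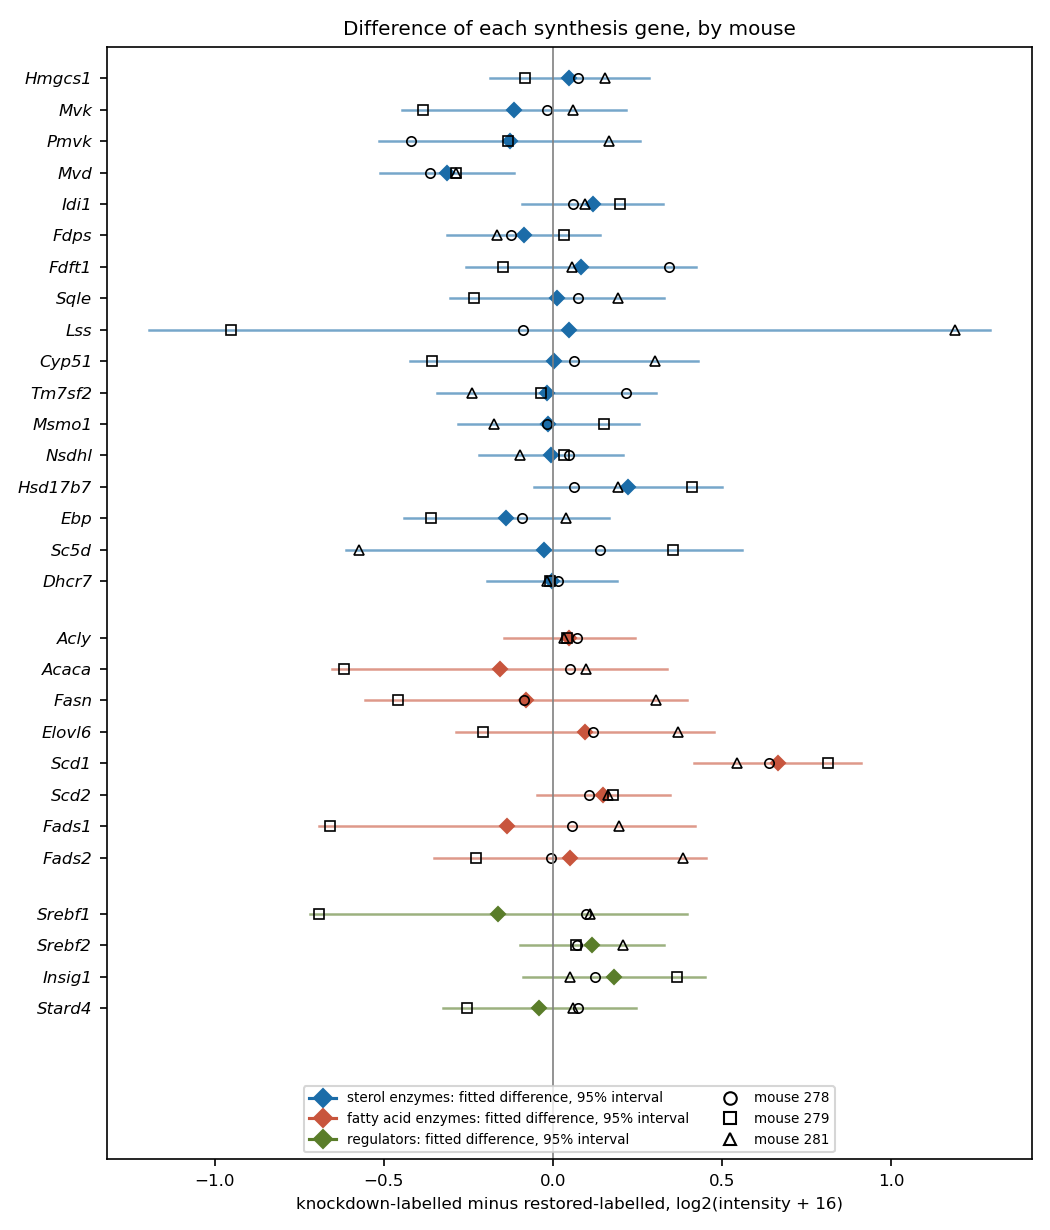
Knockdown-labelled minus restored-labelled difference of 29 genes on the log2(intensity + 16) scale (x axis), 1 row per gene, as the fitted difference with its 95% interval (diamond and bar) and the 3 single mice (open symbols). The bars of Scd1 and Mvd are the ones that do not reach 0, and Lss has the widest bar, from -1.20 to 1.29.

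The steps from acetyl-CoA to mevalonate and the isoprenoids held the member with the most negative difference. Mvd, the mevalonate diphosphate decarboxylase that makes isopentenyl diphosphate, read 323, 390.5 and 270.4 in the knockdown-labelled cells of mice 278, 279 and 281, against 419.8, 479.8 and 334 in the restored-labelled cells. Each knockdown-labelled array lay below its partner, but the groups overlapped because the mice differed in level. The means were 328 ± 60.2 in knockdown-labelled and 411 ± 73.4 in restored-labelled cells (SD, n = 3 arrays each), and the difference was -0.31 ± 0.071 (adjusted p = 0.771, limma). This small error rests on the pairing by mouse, as it was 0.18 in the fit without the block. A fit to 5 arrays, which drops restored-labelled mouse 279 and the mouse term, gave -0.20 ± 0.18. Its dimmer probe set gave -0.42, -0.44 and -0.41 in the single mice. No other gene of this segment had the same negative sign in every mouse.

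Idi1, the isomerase that turns isopentenyl into dimethylallyl diphosphate, read 3617, 3232 and 3276 in knockdown-labelled and 3470.4, 2815 and 3069 in restored-labelled cells. Each knockdown-labelled array lay above its partner and the groups overlapped, with a difference of 0.12 ± 0.075 (adjusted p = 0.771, limma), which was 0.010 with centred arrays and 0.046 in the fit to 5 arrays. Fdps, which joins these units to farnesyl diphosphate, read 2524, 2313 and 2172 in knockdown-labelled cells, against 2752, 2261 and 2441 in restored-labelled cells. Its sign differed between mice, and the difference was -0.086 ± 0.081 (adjusted p = 0.802, limma). Hmgcs1, the HMG-CoA synthase gene whose promoter holds the sterol element match, averaged 6577 ± 133 in knockdown-labelled and 6378 ± 621 in restored-labelled cells (SD, n = 3 arrays each). Its difference was 0.048 ± 0.085, and its 4 probe sets above the filter all gave positive differences, between 0.048 and 0.37. The 0.37 came from the dimmest of these, with 0.17, 1.02 and -0.085 in mice 278, 279 and 281. In that probe set the restored-labelled array of mouse 279 read 695, against 1265 to 1623 on the other arrays. The kinases that add phosphate to mevalonate had mixed signs over the mice. Mvk averaged 481 ± 14.9 in knockdown-labelled and 527 ± 81.8 in restored-labelled cells, a difference of -0.12 ± 0.12. Pmvk averaged 1198 ± 196 in knockdown-labelled and 1306 ± 169.8 in restored-labelled cells, a difference of -0.13 ± 0.14.

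The later sterol steps, from squalene to cholesterol, gave small differences at most genes. Fdft1, the squalene synthase, averaged 2139 ± 209 in knockdown-labelled and 2029 ± 346 in restored-labelled cells, a difference of 0.084 ± 0.12. Sqle, the squalene epoxidase and a control point of the route, averaged 1897 ± 131 in knockdown-labelled cells and 1885 ± 161 in restored-labelled cells, a difference of 0.011 ± 0.11. Cyp51, which removes a methyl group from lanosterol, averaged 1768 ± 293 in knockdown-labelled cells and 1750.2 ± 115 in restored-labelled cells, a difference of 0.0024 ± 0.15. All 3 had both signs among the mice. Tm7sf2, a sterol reductase, averaged 885 ± 60.9 in knockdown-labelled and 899 ± 99.8 in restored-labelled cells, a difference of -0.019 ± 0.12. Msmo1, the methylsterol oxidase, averaged 1403 ± 90.5 in knockdown-labelled cells and 1418 ± 105 in restored-labelled cells, a difference of -0.014 ± 0.096. Nsdhl, which acts beside Msmo1 in sterol demethylation, averaged 1456 ± 37.6 in knockdown-labelled cells and 1462 ± 45.9 in restored-labelled cells, a difference of -0.0064 ± 0.076. These too had both signs among the mice. The desaturase Sc5d stood at -0.027 ± 0.21, with 967, 982 and 603 in knockdown-labelled and 877, 765 and 905 in restored-labelled cells, so that mouse 281 went the other way from mice 278 and 279. Dhcr7, the reductase of the last step, was the steadiest of the sterol genes over the mice. It averaged 6009 ± 272 in knockdown-labelled and 6023 ± 240.2 in restored-labelled cells (SD, n = 3 arrays each), and its interval ran from a fold of 0.873 to 1.14.

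Hsd17b7, the ketoreductase of sterol demethylation, read 453, 587 and 463 in knockdown-labelled cells, against 433, 438 and 403 in restored-labelled cells. The groups did not overlap, and the knockdown-labelled array of mouse 279 was the highest. The difference was 0.22 ± 0.10 (adjusted p = 0.771, limma), or 0.12 with centred arrays. Of its 4 probe sets this was the 1 above the filter. The others, at means of 77.7, 65.1 and 58.2, gave -0.12, 0.30 and 0.21. Ebp, the sterol isomerase, read 3155, 2884 and 3236 in knockdown-labelled cells, against 3362, 3712 and 3149 in restored-labelled cells. Mouse 281 had the opposite sign from the other mice, and the difference was -0.14 ± 0.11 (adjusted p = 0.785, limma).

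Lss, the lanosterol synthase that closes the sterol ring, was the least settled member. Its brightest probe set read 467, 517 and 944 in knockdown-labelled cells and 498, 1016 and 406 in restored-labelled cells. The differences in mice 278, 279 and 281 were -0.090, -0.95 and 1.19, and the fitted one was 0.048 ± 0.45. Another probe set followed it with 0.13, -0.93 and 1.09, while the remaining probe set gave 0.17, 0.55 and 0.45. The fitted differences of these other probe sets were 0.096 ± 0.42 and 0.39 ± 0.11 (adjusted p = 0.962 and 0.802 over all probe sets, limma). All 3 fitted values were positive, while the probe sets differed in sign in mice 278 and 279.

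Fatty acid synthesis held the member with the most positive difference. Scd1, a stearoyl-CoA desaturase that makes monounsaturated fatty acids, read 899, 1319.9 and 806 in the knockdown-labelled cells of mice 278, 279 and 281, against 572, 745 and 548 in the restored-labelled cells. All knockdown-labelled arrays lay above all restored-labelled ones. The means were 1008 ± 274 in knockdown-labelled and 622 ± 107 in restored-labelled cells (SD, n = 3 arrays each), and the difference was 0.66 ± 0.089, a fold of 1.59 with an interval from 1.34 to 1.88 that is not adjusted for the number of genes. The error was 0.21 in the fit without the block. In limma its unadjusted p of 0.00176 ranked 10 among all genes, and its adjusted p was 0.771, so it did not pass. A second probe set of Scd1 lay below the filter, at a mean of 52.2, and gave -0.041, 0.39 and 0.30. Scd2, the desaturase of the same family that is known from brain and blood cells, read 8796, 8513 and 8446 in knockdown-labelled cells, against 8176, 7527 and 7546 in restored-labelled cells. These groups did not overlap either, by a smaller margin, with a difference of 0.15 ± 0.071 (adjusted p = 0.771, limma), or 0.041 with centred arrays. Its other probe sets above the filter gave 0.44 and 0.46. The 0.44 averaged 0.11, 0.97 and 0.24 in mice 278, 279 and 281. In that probe set the restored-labelled array of mouse 279 read 2004, against 3412 to 4575 on the other arrays.

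**Figure D2:**
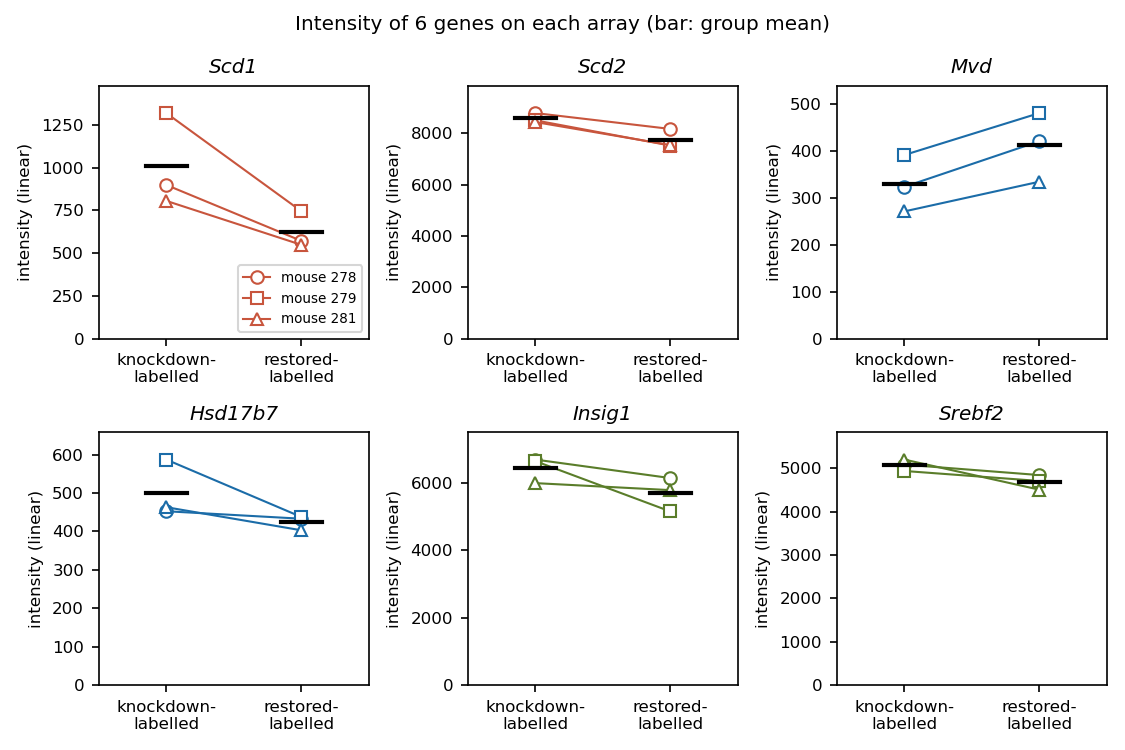
Linear intensity (y axis, from 0) of 6 genes on the 6 arrays, knockdown-labelled left and restored-labelled right; lines join the arrays of a mouse and black bars are group means. The genes are the 2 with the smallest unadjusted p among sterol enzymes (Mvd, Hsd17b7), fatty acid enzymes (Scd1, Scd2) and regulators (Insig1, Srebf2); Mvd is the panel in which every line ends higher on the restored-labelled side.

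Among the enzymes that build the fatty acid chain, the restored-labelled array of mouse 279 was the highest of 6 for several. Acaca, the acetyl-CoA carboxylase that makes malonyl-CoA, read 2783, 2570.4 and 2914 in knockdown-labelled cells and 2687, 3957 and 2724 in restored-labelled cells. The restored-labelled array of mouse 279 was far above the other 5 arrays, and the difference was -0.16 ± 0.18 (adjusted p = 0.819, limma). Fasn, the fatty acid synthase, read 3821, 3889 and 4468 in knockdown-labelled cells, against 4057, 5351 and 3615 in restored-labelled cells, with the same restored-labelled array highest and a difference of -0.080 ± 0.17. Fads1, a desaturase of polyunsaturated chains, read 2423, 2125 and 2413 in knockdown-labelled cells, against 2328, 3365 and 2108 in restored-labelled cells, again with that array highest and a difference of -0.14 ± 0.20. The fit to 5 arrays, without it, gave these 3 genes differences of 0.025, 0.080 and 0.064, each of the opposite sign. Acly, the ATP citrate lyase that supplies acetyl-CoA to both routes, was steady, at 9776 ± 372 in knockdown-labelled and 9455 ± 365 in restored-labelled cells (SD, n = 3 arrays each) and a difference of 0.048 ± 0.069. Elovl6, an elongase, averaged 2968 ± 313 in knockdown-labelled and 2781 ± 307 in restored-labelled cells, a difference of 0.094 ± 0.14. Fads2, another desaturase of polyunsaturated chains, averaged 4064 ± 278 in knockdown-labelled cells and 3949.9 ± 605 in restored-labelled cells, a difference of 0.051 ± 0.14. Both were negative in mouse 279 and positive in mouse 281.

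Of the 4 regulators 2 had a positive and 2 a negative difference, and 0 passed in limma. Insig1, which retains SREBPs in the endoplasmic reticulum and is itself a target of them, read 6683, 6638 and 5985 in knockdown-labelled cells, against 6134, 5144 and 5777 in restored-labelled cells. Each knockdown-labelled array lay above its partner, the groups overlapped, and the difference was 0.18 ± 0.097 (adjusted p = 0.771, limma). It was 0.074 with centred arrays and 0.11 in the fit to 5 arrays. Srebf2, the gene of SREBP-2, read 5088, 4941 and 5204 in knockdown-labelled cells, against 4845, 4709 and 4508 in restored-labelled cells. The groups did not overlap, and the difference was 0.12 ± 0.076 (adjusted p = 0.776, limma), or 0.0083 with centred arrays.

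Srebf1, which encodes SREBP-1, read 1645, 1447 and 1562 in knockdown-labelled cells and 1535, 2347 and 1448 in restored-labelled cells. As with Acaca, Fasn and Fads1, the restored-labelled array of mouse 279 was the highest, and the difference of -0.16 ± 0.20 (adjusted p = 0.828, limma) became 0.055 in the fit to 5 arrays. Stard4, a carrier of cholesterol between membranes, read 4474, 3709.6 and 4237 in knockdown-labelled cells, against 4252, 4428 and 4064 in restored-labelled cells. The knockdown-labelled array of mouse 279 was the lowest, and the difference was -0.041 ± 0.10 (adjusted p = 0.914, limma).

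The sterol and fatty acid branches were then set side by side. Of 17 sterol enzymes 7 had a positive and 10 a negative difference, with a median of -0.0064. Of 8 fatty acid enzymes 5 were positive and 3 negative, with a median of 0.049. The sterol median minus the fatty acid median was -0.056. The single mice gave -0.017, 0.13 and -0.19 for this contrast, so its sign was not shared. As the members were chosen by name with earlier results known, the branches are described without a test.

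The fatty acid branch varied more between mice. Its median difference was 0.064 in mouse 278, -0.22 in mouse 279 and 0.25 in mouse 281, an SD of 0.235 over the mice. The sterol branch gave 0.047, -0.082 and 0.055, an SD of 0.0771, and all genes gave 0.031, -0.044 and 0.032. Both branches thus had the sign of all genes in every mouse. In mouse 281 the difference was positive for 8 of 8 fatty acid enzymes and for 10 of 17 sterol enzymes, against 57.9% of all genes, and in mouse 279 for 3 of 8 and 6 of 17, against 44.8%. The median SD of a gene over the mice was 0.30 for fatty acid enzymes, 0.205 for sterol enzymes and 0.182 for all genes. All these spreads are of within-mouse differences, and the values do not bear out the pairing for mice 279 and 281. They also set 8 genes against 17.

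By array, relative to each gene's own mean, the fatty acid branch lay at 0.045, -0.094 and 0.049 in the knockdown-labelled cells of mice 278, 279 and 281 and at -0.043, 0.11 and -0.20 in the restored-labelled cells. The sterol branch lay at 0.028, 0.0063 and -0.044 against 0.013, 0.079 and -0.11 in restored-labelled cells. In both branches the restored-labelled array of mouse 279 was the highest and that of mouse 281 the lowest, and the groups overlapped. The same arrays were the highest and the lowest over all genes tested, at 0.046 and -0.030, so this order was not particular to the branches. The restored-labelled array of mouse 279 was the highest array for 9 of 17 sterol and 4 of 8 fatty acid enzymes, against the 38.9% of all genes given above.

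**Figure D3:**
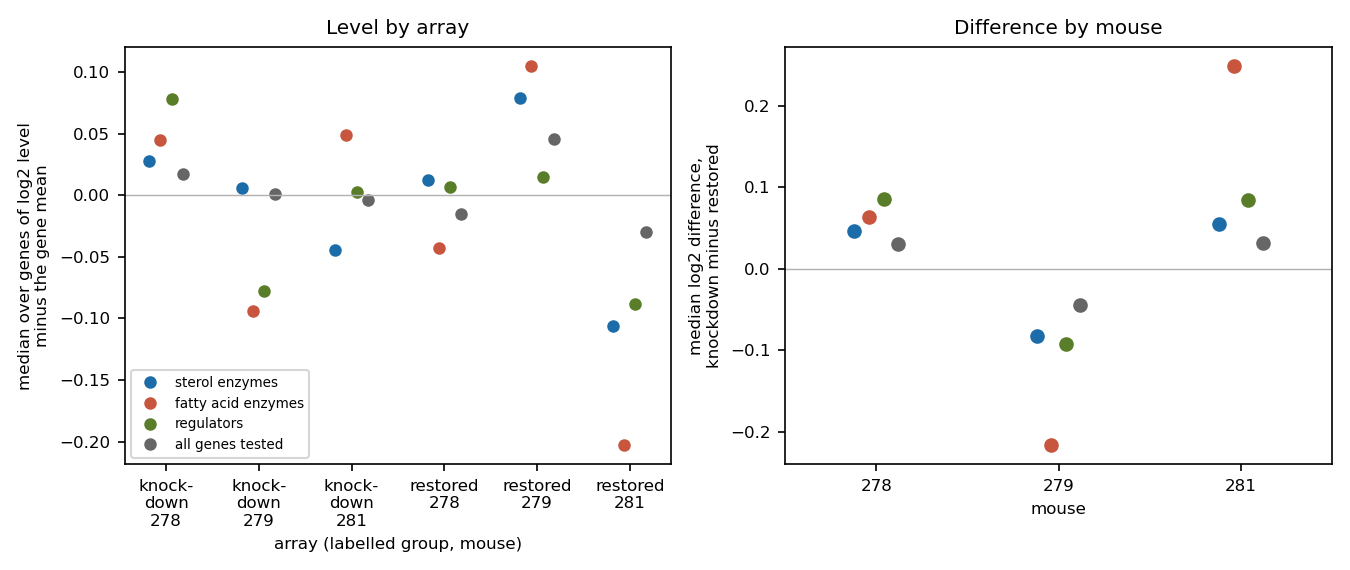
Left, the median over genes of the log2 level minus each gene's mean over the 6 arrays (y axis) for each array (x axis); right, the median log2 difference, knockdown-labelled minus restored-labelled, in each mouse. Colours mark sterol enzymes, fatty acid enzymes, regulators and all 10824 genes; the fatty acid enzymes spread furthest, from -0.22 in mouse 279 to 0.25 in mouse 281.

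Markers of other cells were measured on the same arrays. The summed intensity of 11 neutrophil markers was 25341, 54254 and 29797 in the knockdown-labelled cells of mice 278, 279 and 281, and 24881, 17822 and 48767 in the restored-labelled cells. It was thus higher on the knockdown-labelled side in mouse 279 and lower there in mouse 281, the opposite of the fatty acid branch in these mice. Its part in the result was not tested. The sum of 9 B cell and plasma cell markers lay between 15970 and 20395 in knockdown-labelled and between 13664 and 14883 in restored-labelled cells, without overlap, as for Scd1, Scd2, Hsd17b7 and Srebf2. Its part was not tested either. The list was not uniform. Jchain, Sdc1, Mzb1 and Cd79a were higher on the knockdown-labelled side in every mouse, and Xbp1, Ms4a1, Ebf1 and Pax5 were mixed. Cd79b was lower there in every mouse, with 2580, 2321 and 2327 against 2709, 2455 and 2632. Among these markers Pax5 read 32.5 or below on every array, and 0 on 1, while Sdc1 read 1809 to 4618. The 8 LSK markers summed to between 46144 and 48740 in knockdown-labelled cells, against between 43258 and 45876 in restored-labelled cells, also without overlap. The 8 adipocyte markers, of which 2 passed the filter, summed to 1106 to 1266 in knockdown-labelled and 1049 to 1180 in restored-labelled cells, with Adipoq at 162.7 or below. The 10 macrophage markers, of which 5 passed the filter, summed to 1739 to 3687 in knockdown-labelled and 3357 to 3697 in restored-labelled cells. The 7 erythroid markers summed to 2486 to 10568 in knockdown-labelled and 2615 to 6995 in restored-labelled cells, and both lists overlapped. Within the macrophage list the brightest marker was Vcam1, at 466 to 2166. C1qa, C1qb, C1qc, Mrc1 and Mertk were lower in the knockdown-labelled array of every mouse, and the other macrophage markers were mixed. Of those lower in every mouse only C1qb passed the filter. In such bulk samples, fewer cells of a type and less RNA per cell cannot be told apart.

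Of the 29 genes 15 had several probe sets above the filter, and these gave 1 sign for 12 genes and both signs for Mvk, Msmo1 and Stard4. Msmo1 stood at -0.014 by its brightest probe set and at 0.36, 0.39 and 0.33 in the single mice by a dimmer one. Elovl6 gave 0.094, 0.18 and 0.67 in order of falling brightness, and Scd2 gave 0.15, 0.44 and 0.46. The dimmest of these Elovl6 probe sets, at a mean of 178, gave 1.26, -0.21 and 0.96 in the single mice.

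**Figure D4:**
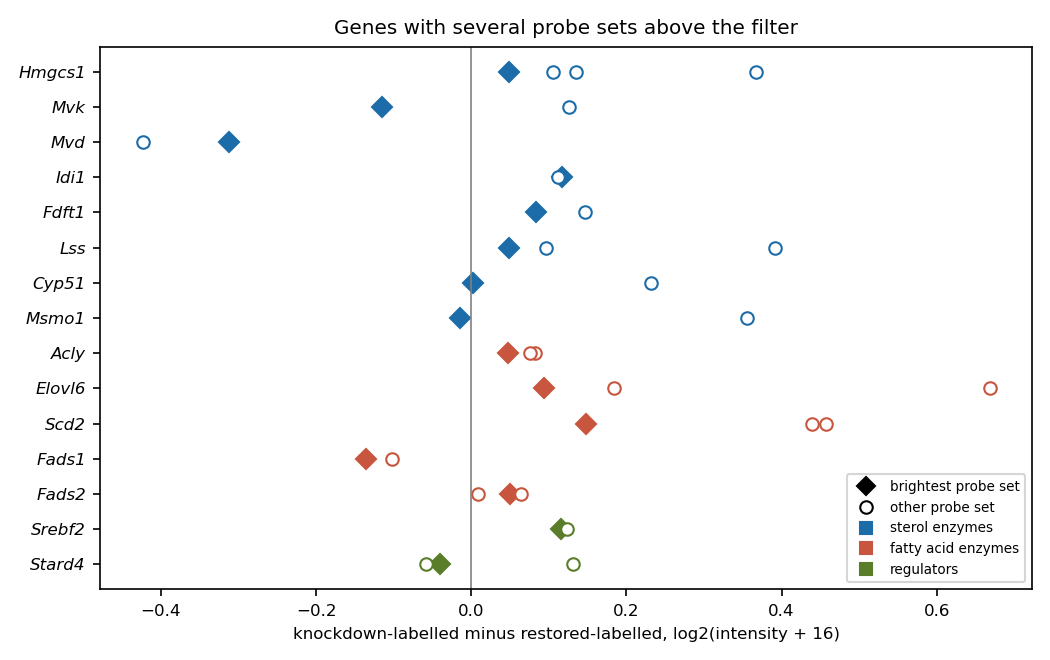
Log2 difference, knockdown-labelled minus restored-labelled (x axis), of each probe set above the filter for the 15 genes with several, 1 row per gene; filled diamonds are the brightest probe sets and open circles the others. Mvd lies left of 0 with both probe sets, and Mvk, Msmo1 and Stard4 lie on both sides.

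Other genes of the pathway were read from 3 further lists. Of 6 further sterol synthesis genes 4 were tested, 2 with a positive and 2 with a negative difference, and 0 passed in limma. The smallest unadjusted p belonged to Ggps1, which makes geranylgeranyl diphosphate from the isoprenoid pool, at 2379 ± 103 in knockdown-labelled and 1833 ± 377 in restored-labelled cells (SD, n = 3 arrays each), a difference of 0.39 ± 0.14, and to Aacs, which activates acetoacetate, at -0.24 ± 0.14. Of 19 genes of sterol sensing and transport 13 were tested, 8 positive and 5 negative, and 0 passed. Mylip, an LXR target that sends the LDL receptor to degradation, averaged 1264 ± 95.1 in knockdown-labelled and 952 ± 206 in restored-labelled cells (SD, n = 3 arrays each), a difference of 0.43 ± 0.12 (adjusted p = 0.771, limma). Npc1, which exports cholesterol from lysosomes, stood at 0.21 ± 0.072. Of 26 further fatty acid genes 21 were tested, 10 positive and 11 negative, and 0 passed. Oxsm, of mitochondrial fatty acid synthesis, gave 0.39 ± 0.11 and Hacd2, a dehydratase of chain elongation, -0.24 ± 0.071. At unadjusted p below 0.05 these lists held 0 of 4, 2 of 13 and 2 of 21 tested genes, against 5.84% of all genes.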

How the data were processed

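The authors deposited a table of linear intensities for 45101 probe sets of an Affymetrix mouse array. RNA was amplified and labelled with a NuGEN Ovation V2 kit, per the labels' protocols. The sources used here do not say how probe sets were summarized or scaled. Of the table, 64 control probe sets were left out, 34945 of the rest carried 1 gene symbol, 932 several, and 9160 are unnamed here.

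Intensities were taken to log2(value + 16), which understates the changes of dim genes. Probe sets with a mean at or above the median (an intensity of 143.5) were kept (22519), and the brightest per gene left 10824 genes. limma 3.58.1 in R 4.3.3 (lmFit, eBayes) fitted group and mouse, with 2 residual degrees of freedom, and p-values were adjusted by Benjamini-Hochberg at a threshold of 0.05. The same fit was first checked on simulated data. That check required recovery only for changes larger than the fitted difference of any member, so it does not bear on whether smaller ones would be called.

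The labels take both populations from the same animal, so the pairing was kept. The same-mouse correlations of deviations from the group means were 0.44, -0.17 and -0.29 for mice 278, 279 and 281. Across mice, knockdown-labelled 279 with restored-labelled 281 gave 0.34 and knockdown-labelled 281 with restored-labelled 279 gave 0.41, so the values do not bear out the pairing for these mice, and it rests on the labels.

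Members and lists were chosen with earlier results of these data known. All members are named. Values on every array are given for the 5 sterol and 3 fatty acid enzymes with the smallest unadjusted p and for the regulators, and those of Sc5d, Lss, Fasn and Fads1 were added after their values were seen. Other pathway lists name the 2 genes with the smallest p. Promoters came from RefSeq (GRCm38.p6). Figures were drawn with matplotlib 3.10.9. The alternatives are listed with their effect in the closing section.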

Additional observations from a re-analysis of the deposited data

How the results depend on the processing

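Few residual degrees of freedom limit every p-value here, and 0 genes passed an adjusted p of 0.05 in limma under the main settings (632 at unadjusted p below 0.05) or under any of the 13 alternatives. Unadjusted counts were 971 with centred arrays, where the median over all genes was -0.11, and 1083 without a filter. Centring split these 143 higher and 828 lower, against 429 and 203, and quantile normalization split 710 as 252 and 458. They ran from 258 to 723 when 1 mouse was left out, the lowest without mouse 278. The fit with no replicate block gave 634 and no adjusted call either, but the standard error of Mvd was 0.18 in place of 0.071 and that of Scd1 0.21 in place of 0.089. Mvd was then no longer below an unadjusted p of 0.05 (0.13), nor was it with a trended and robust prior (0.105), without mouse 278 (0.143) or 281 (0.0553), or in the fit to 5 arrays (0.334). Other members came below it in limma. With the trended and robust prior these were Scd2 (0.00713) and Insig1 (0.0462), where 5.94% of all genes were below. With the mean over probe sets it was Scd2 (0.0355), where 5.67% of all genes were below. Among the members the lowest adjusted p under any alternative or probe set was 0.52.

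The sterol median was -0.11 with centred arrays, -0.027 to -0.00090 when 1 mouse was left out and 0.0013 in the fit to 5 arrays, which drops restored-labelled mouse 279 and the mouse term. The fatty acid median was -0.080 to 0.13 when 1 mouse was left out, negative without mouse 281, and -0.058 with centred arrays. The contrast of the branches was -0.13 to 0.076, positive without mouse 281.

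Some members, none of them called, changed sign. With centred arrays, Hmgcs1 stood at -0.058, Fdft1 at -0.023, Sqle at -0.096, Lss at -0.058, Cyp51 at -0.10, Acly at -0.059, Elovl6 at -0.013 and Fads2 at -0.056. Of the members that kept a positive sign when centred, Srebf2 stood at 0.0083, Idi1 at 0.010, Scd2 at 0.041, Insig1 at 0.074 and Hsd17b7 at 0.12, while the negative Mvd stood at -0.42, Acaca at -0.26, Ebp at -0.24 and Fdps at -0.19. After quantile normalization, Sqle stood at -0.014, Lss at -0.023 and Cyp51 at -0.022. As the mean over probe sets, Mvk stood at 0.0052, Msmo1 at 0.17 and Stard4 at 0.010, and single other probe sets gave 0.13, 0.36 and 0.13 for these genes. In the fit to 5 arrays, Mvk stood at 0.0013, Dhcr7 at 0.022, Acaca at 0.025, Fasn at 0.080, Fads1 at 0.064 and Srebf1 at 0.055.

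Leaving out 1 mouse turned the sign of these genes, whose ranges were -0.0042 to 0.11 for Hmgcs1, -0.20 to 0.019 for Mvk, -0.28 to 0.017 for Pmvk, -0.046 to 0.20 for Fdft1, -0.080 to 0.13 for Sqle, -0.52 to 0.55 for Lss, -0.15 to 0.18 for Cyp51, -0.14 to 0.091 for Tm7sf2, -0.097 to 0.066 for Msmo1, -0.033 to 0.040 for Nsdhl, -0.22 to 0.25 for Sc5d and -0.013 to 0.0028 for Dhcr7. For the fatty acid enzymes and regulators they were -0.28 to 0.073 for Acaca, -0.27 to 0.11 for Fasn, -0.044 to 0.24 for Elovl6, -0.30 to 0.13 for Fads1, -0.12 to 0.19 for Fads2, -0.30 to 0.10 for Srebf1 and -0.097 to 0.066 for Stard4. Scd1 ran from 0.59 to 0.73 and Mvd from -0.33 to -0.29, but the fit to 5 arrays gave 0.80 for Scd1 and -0.20 for Mvd. The cause of these turns was not tested. In the upper 30% of probe sets 4 members, Mvk, Mvd, Lss and Hsd17b7, had no value.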

Other observations

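Abcg1, a cholesterol exporter outside the set, averaged 5221 ± 106 in knockdown-labelled and 4532 ± 361 in restored-labelled cells (SD, n = 3 arrays each). Its difference was 0.21 ± 0.078 (adjusted p = 0.771, limma), positive in all 3 mice, and it was chosen after its values were seen.

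Among the 15 synthesis genes with several probe sets above the filter, the brightest probe set gave the smallest difference in size for 12 (80.0%). Over all 5032 genes with several probe sets above the filter this held for 50.4%. The share was computed after the probe sets had been seen, and no test was made of it.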
